A study of Mus musculus with 20 samples.

Results

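F13a1, Ly6c2, Ccr2, Csf1r, Irf8, Klf4, Cx3cr1 and Ms4a6c, 8 genes of the monocyte lineage, were examined in bulk RNA-seq of mouse bone marrow neutrophils. They were taken by symbol, and all 8 were among the 24421 genes listed in each count file and among the 14030 genes that passed the filter on low counts. The neutrophils were obtained by magnetic negative selection from 20 female mice, 5 in each of 4 groups, and each mouse gave 1 library. Untreated WT and IMQ-treated WT were C57BL/6J mice bought from a supplier. Untreated and IMQ-treated Bmal1 Mye-/- (KO in the plots) were Bmal1 flox/flox;LysMCre mice bred in the facility of the study, so that genotype and origin of the mice cannot be told apart. The Cre recombinase is expressed from the Lyz2 locus, which is active in neutrophils, monocytes and macrophages, and no group carried Cre without the floxed alleles. IMQ is imiquimod, a Toll-like receptor agonist that was applied to the skin as a 5% cream, 3 times per week over 6 weeks, in mice aged 8 to 10 weeks at the start. The age of the untreated mice was not given in the sources used here. Mice were killed at zeitgeber time 1 to 4, which is counted in hours from lights on.

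Monocytes and neutrophils descend from shared progenitors in the bone marrow. Irf8 and Klf4 are transcription factors that the monocyte branch needs, and Csf1r is the receptor through which the cytokines Csf1 and Il34 sustain monocytes and macrophages. Ccr2 is the chemokine receptor by which classical monocytes, the inflammatory type, leave the marrow, and Cx3cr1, the receptor of the chemokine Cx3cl1, is highest on nonclassical monocytes, which patrol vessels. Ly6c2 encodes the surface protein Ly6C of classical monocytes, F13a1 the A subunit of coagulation factor XIII, and Ms4a6c a membrane protein of the MS4A family. Neutrophils also carry Ly6C and are known to transcribe Csf1r, so that these 2 genes are less particular to monocytes than the other members.

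The 20 libraries held between 30782166 and 92613500 reads on genes (median 66094896). Levels are given as CPM, the count of a gene relative to all reads on genes of its library, after TMM scaling, which adjusts for differences in RNA composition, and the scaling factors ranged from 0.854 to 1.38. The targeted gene Arntl (Bmal1) had 1.35 ± 0.322 CPM in untreated WT and 0.721 ± 0.240 CPM in untreated Bmal1 Mye-/- (SD, n = 5), a difference that did not pass the test (log2 fold change -0.90, edgeR adjusted p = 1). Lyz2, which carries the Cre, had 2465 to 12033 CPM in the WT libraries and 58.8 to 177 CPM in the Bmal1 Mye-/- libraries, so that no library went against its genotype label at this locus. The 9 neutrophil marker genes analysed, among them S100a8 and Ltf, summed to between 74425 and 163696 CPM per library, and Ly6g was not analysed here. The 8 monocyte lineage genes summed to between 653 and 2514 CPM. Nothing in the sources used here says that mice of a group came from separate litters or days, and p-values measure the spread between these mice. The study names a NovaSeq or a NextSeq sequencer without saying which library ran on which, so the sequencer could not be modelled.

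The sequences before the transcription start are shown for 5 members, namely the 4 whose levels moved together most closely over the libraries (Ccr2, Irf8, Klf4 and Ms4a6c) and Ly6c2, which did not move with them. Each run holds the 250 bases before the start, 5′ to 3′ on the strand of the gene, taken from RefSeq on GRCm38.p6. The windows are chr9:124101933-124102182 (plus strand) for Ccr2, chr8:120736108-120736357 (plus strand) for Irf8, chr4:55532476-55532725 (minus strand) for Klf4, chr19:11469118-11469367 (plus strand) for Ms4a6c and chr15:75111938-75112187 (minus strand) for Ly6c2. Capitals mark matches to CACGTG, the E-box letters that the Bmal1-Clock pair is known to bind, or to AGGAAGT, letters of the ETS type that PU.1, a myeloid transcription factor, is known to bind. Both strands were searched, and the matches did not overlap.
Ccr2: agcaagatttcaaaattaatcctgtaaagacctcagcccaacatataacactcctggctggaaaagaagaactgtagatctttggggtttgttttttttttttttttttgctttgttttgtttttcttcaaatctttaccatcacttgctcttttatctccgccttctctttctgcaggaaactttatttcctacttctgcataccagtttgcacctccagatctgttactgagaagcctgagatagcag
Irf8: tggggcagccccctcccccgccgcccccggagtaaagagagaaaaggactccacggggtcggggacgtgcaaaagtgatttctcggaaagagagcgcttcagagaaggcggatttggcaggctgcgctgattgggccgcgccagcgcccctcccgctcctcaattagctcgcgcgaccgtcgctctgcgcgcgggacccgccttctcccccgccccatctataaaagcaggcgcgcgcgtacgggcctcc
Klf4: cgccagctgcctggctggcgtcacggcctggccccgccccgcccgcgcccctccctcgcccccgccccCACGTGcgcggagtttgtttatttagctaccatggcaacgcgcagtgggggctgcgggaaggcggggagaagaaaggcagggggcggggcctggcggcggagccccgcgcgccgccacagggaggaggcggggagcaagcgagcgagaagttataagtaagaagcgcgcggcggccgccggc
Ms4a6c: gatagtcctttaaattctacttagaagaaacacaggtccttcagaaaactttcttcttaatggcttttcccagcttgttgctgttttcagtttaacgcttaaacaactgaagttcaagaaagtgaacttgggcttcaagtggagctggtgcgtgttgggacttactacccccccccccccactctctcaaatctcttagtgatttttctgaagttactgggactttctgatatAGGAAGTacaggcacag
Ly6c2: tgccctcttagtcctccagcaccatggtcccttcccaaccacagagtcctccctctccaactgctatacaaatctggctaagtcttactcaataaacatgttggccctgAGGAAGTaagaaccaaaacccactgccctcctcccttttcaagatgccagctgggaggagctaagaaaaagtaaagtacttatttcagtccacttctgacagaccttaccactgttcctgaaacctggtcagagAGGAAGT

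Of the 7 members whose windows were searched, the E-box letters were present before the start of Klf4, 182 bases upstream. Of the 32851 windows of this length in the promoter table, 6.02% held them. AGGAAGT was present before the starts of 2 members, in Ly6c2 at 141 and 7 bases upstream and in Ms4a6c at 17 bases upstream, beside 7.69% of all windows. The third motif searched, GAAA followed after any 2 bases by GAAA, which resembles the sites of interferon regulatory factors such as Irf8, was present in 0 of the 7 and in 2.98% of all windows. These are matches of letters, and binding was not measured. F13a1 and Cx3cr1 held 0 matches to the 3 motifs in their windows, and no window of Csf1r was searched.

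In untreated neutrophils the members spanned a wide range of levels, and 0 of the 8 passed the test between the genotypes. Per kilobase of exon, so that genes can be compared with each other, the median levels in untreated WT were 206 CPM per kb for Ly6c2, 29.7 for Csf1r, 6.72 for F13a1, 5.75 for Ms4a6c, 2.69 for Ccr2, 2.09 for Klf4, 2.03 for Irf8 and 0.858 for Cx3cr1. Ly6c2 and Csf1r stood clear of the genes below them in all 5 libraries. F13a1 and Ms4a6c overlapped, at 5.07 to 8.86 and 5.42 to 8.93 CPM per kb, and so did Ccr2 with Klf4, Klf4 with Irf8 and Irf8 with Cx3cr1. The order of the medians was the same in both groups given IMQ, and in untreated Bmal1 Mye-/- Klf4 came before Ccr2. In a bulk sample, fewer cells of a type and less RNA per cell cannot be told apart, and these levels do not say which cells held the RNA.

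Between untreated Bmal1 Mye-/- and untreated WT, 0 of the 8 members passed the quasi-likelihood test of edgeR, adjusted over all tested genes by the Benjamini-Hochberg method, 0 had an unadjusted p under 0.05, and 0 passed with DESeq2. Over all tested genes the adjusted edgeR test called 0.207% and the unadjusted one 2.19%. DESeq2 called 0.177% of the genes it tested. Fitted log2 fold changes lay between -0.04 for Ly6c2 and 0.70 for Cx3cr1, with a median of 0.27 beside 0.00 over all tested genes. Ly6c2 was the most even member, at 565, 540.0, 606, 566 and 605 CPM in untreated WT (replicates 1 to 5) and 560.4, 599, 567, 577 and 493 CPM in untreated Bmal1 Mye-/-, and the 95% interval of its log2 fold change ran from -0.41 to 0.32. Cx3cr1, the least even, had 4.21, 3.31, 3.87, 3.55 and 6.94 CPM in untreated WT and 7.39, 13.8, 4.95, 4.70 and 4.49 CPM in untreated Bmal1 Mye-/-. The groups overlapped, the interval ran from -0.55 to 1.94, and differences of that size were therefore within the error.

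**Figure D1:**
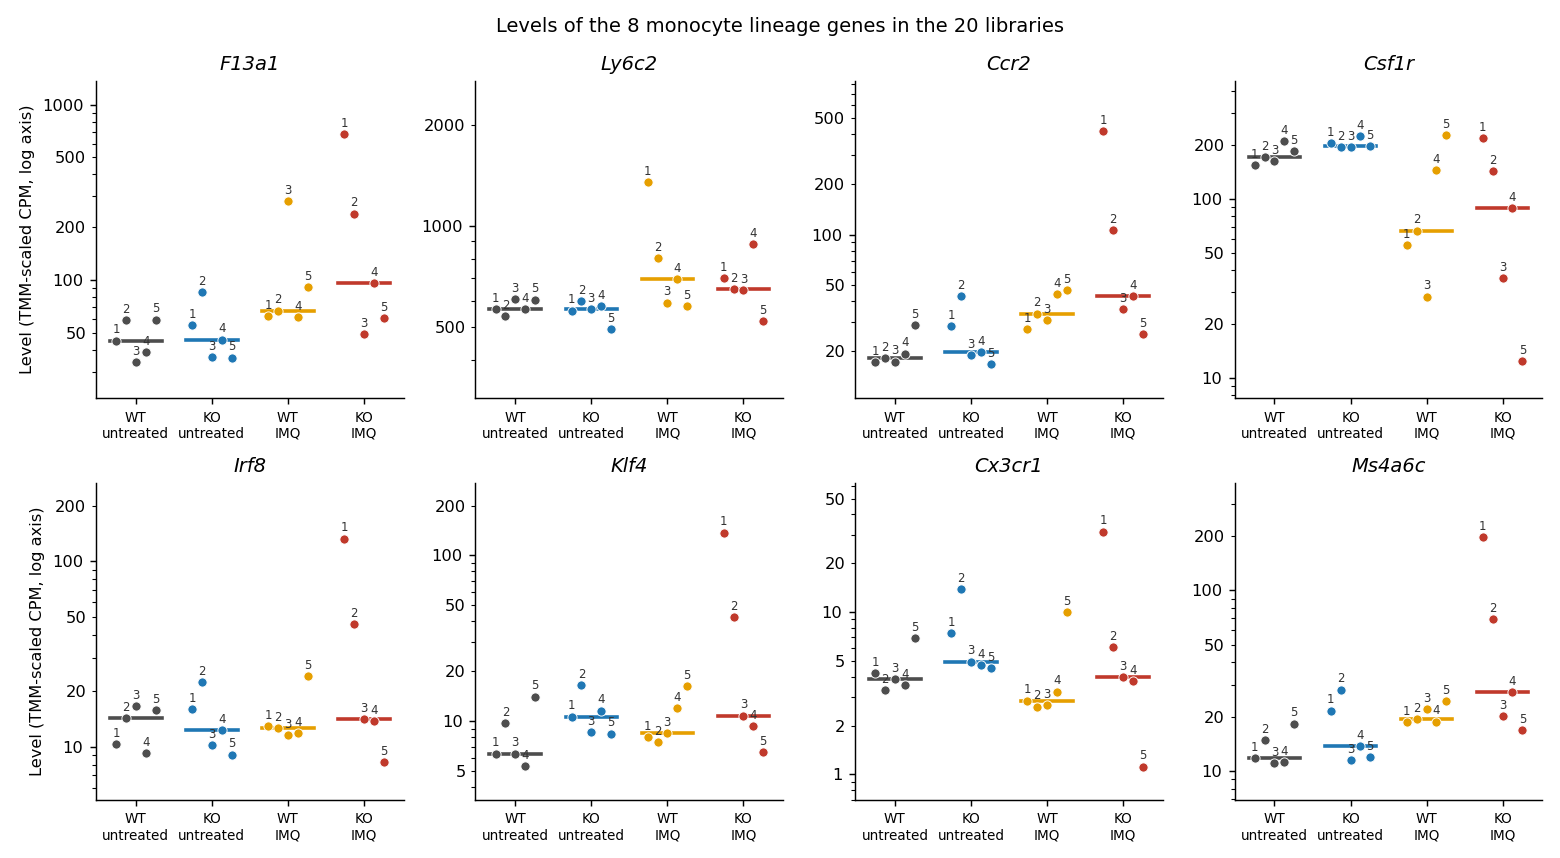
Level of each of the 8 genes (TMM-scaled CPM, log axis) in the 5 libraries of each group, with the replicate number at each point and a line at the group median. For all genes but Ly6c2, replicate 1 of IMQ-treated Bmal1 Mye-/- (KO IMQ) is the highest of its group, up to 681 CPM for F13a1 and 416 CPM for Ccr2.

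After IMQ, 5 of the 8 members rose in Bmal1 Mye-/- neutrophils, and for all 5 the treated replicates 1 and 2 were the highest libraries. F13a1, Ccr2, Irf8, Klf4 and Ms4a6c were higher than in untreated Bmal1 Mye-/- by log2 fold changes of 1.62 to 2.30, while Ly6c2, Csf1r and Cx3cr1 did not pass the test. In this contrast 23.5% of all tested genes were called in either direction and 14.4% as higher, and 39.3% had an unadjusted p under 0.05. The median log2 fold change of the 8 members was 1.75, and that of all tested genes was 0.02. No member had treated libraries that all lay above the untreated ones, as 10.8% of all tested genes had.

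Among the receptors, Ccr2 had 28.4, 43.0, 18.9, 19.9 and 16.8 CPM in the untreated Bmal1 Mye-/- libraries 1 to 5 and 416, 106, 35.8, 43.0 and 25.4 CPM in the IMQ-treated ones. IMQ-treated replicates 1 and 2 stood above all untreated libraries and the other 3 lay within their range. The log2 fold change was 2.30 ± 0.57 (SE, edgeR adjusted p = 0.0117). Csf1r had 205, 194, 194, 223 and 198 CPM untreated and 217, 143, 36.0, 88.7 and 12.3 CPM after IMQ. In 4 of the 5 treated libraries Csf1r was below every untreated one, and the fold change of -1.03 ± 0.55 did not pass the test (edgeR adjusted p = 0.167). Cx3cr1 had 7.39, 13.8, 4.95, 4.70 and 4.49 CPM untreated and 31.3, 6.09, 3.98, 3.74 and 1.12 CPM after IMQ. Its highest and its lowest library were both treated ones, and the log2 fold change of 0.38 had a 95% interval from -0.85 to 1.62.

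The transcription factors Irf8 and Klf4 followed the libraries in which Ccr2 was high. Irf8 had 15.95, 22.3, 10.2, 12.3 and 9.07 CPM in untreated Bmal1 Mye-/- and 133, 46.1, 14.1, 13.7 and 8.29 CPM after IMQ, a log2 fold change of 1.62 ± 0.55 (SE, edgeR adjusted p = 0.0413). Klf4 had 10.6, 16.5, 8.58, 11.6 and 8.40 CPM untreated and 137, 42.3, 10.8, 9.36 and 6.51 CPM after IMQ, a log2 fold change of 1.89 ± 0.62 (SE, edgeR adjusted p = 0.0365). For both genes the treated replicates 1 and 2 were above all 5 untreated libraries, and the other 3 treated libraries were within or below the untreated range. Their group medians barely moved, by ratios of 1.15 for Irf8 and 1.01 for Klf4.

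Of the remaining members, Ms4a6c had 21.6, 28.2, 11.5, 13.7 and 11.96 CPM in untreated Bmal1 Mye-/- and 197, 69.4, 20.1, 27.3 and 16.8 CPM after IMQ (log2 fold change 1.92 ± 0.51, edgeR adjusted p = 0.0150). F13a1 had 55.3, 85.4, 36.5, 45.9 and 36.2 CPM untreated and 681, 239.7, 49.4, 96.0 and 61.1 CPM after IMQ (2.12 ± 0.61, edgeR adjusted p = 0.0209), with replicate 4 also just above the untreated range. Ly6c2 had 701, 648, 644, 884 and 522 CPM after IMQ, against 493 to 599 CPM untreated. It was above the untreated range in 4 of the 5 treated libraries, by little, and its log2 fold change of 0.28 ± 0.19 did not pass (edgeR adjusted p = 0.261). The ratio of medians was 2.16 for Ccr2, 2.09 for F13a1, 1.99 for Ms4a6c and 1.14 for Ly6c2.

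**Figure D2:**
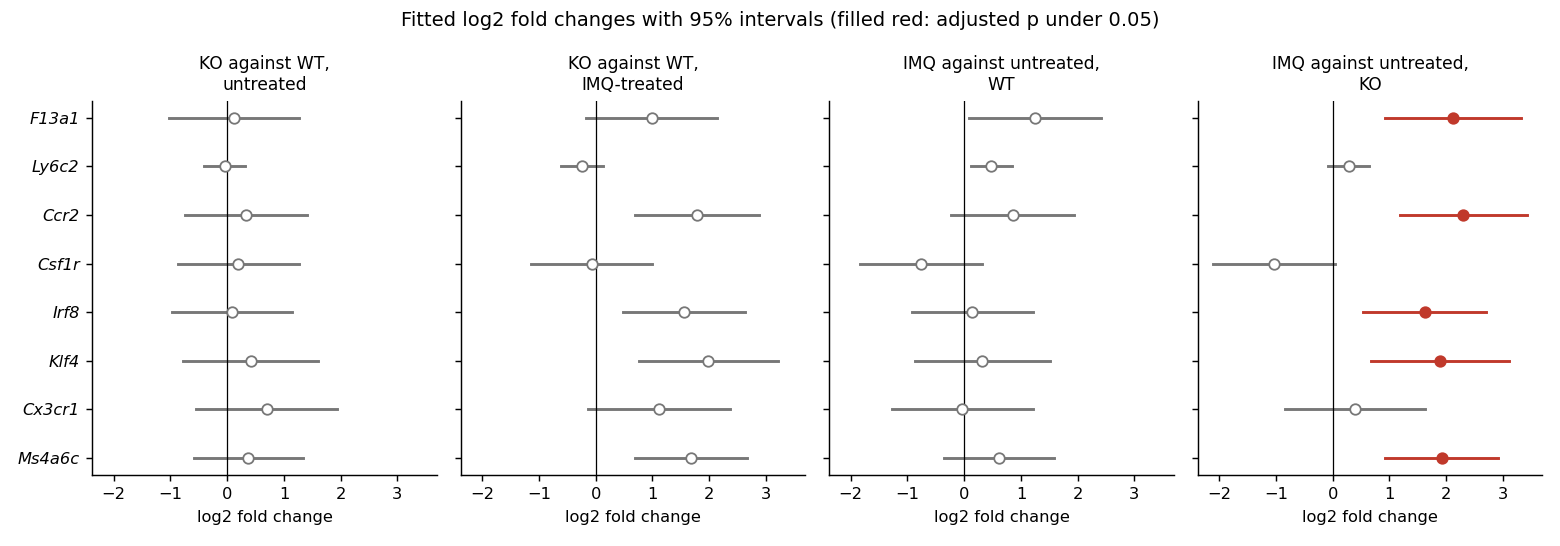
Fitted log2 fold change of each gene (point) with its 95% interval (line) in 4 comparisons, filled and red where the edgeR adjusted p was under 0.05. The 5 filled points, at 1.62 to 2.30, are all in the comparison of IMQ-treated with untreated Bmal1 Mye-/- (KO).

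The calls in Bmal1 Mye-/- depended on single libraries. Without IMQ-treated replicate 1, 1 of the 8 members passed, Ccr2 (log2 fold change 1.06, edgeR adjusted p = 0.0458), beside 15.4% of all tested genes, and the median of the members was 0.60. Without replicate 2 the same 5 passed, beside 28.6% of all tested genes, and the median was 1.75. With both left out, which was chosen after seeing the data, the median was 0.04 and the 1 member that passed was Csf1r, as lower (log2 fold change -2.13 ± 0.59, edgeR adjusted p = 0.0188). Irf8 and Klf4 then turned to -0.21 and -0.32, and Cx3cr1 to -1.26 (edgeR adjusted p = 0.0852). Ccr2, F13a1 and Ms4a6c stayed higher in direction, at 0.46, 0.42 and 0.31, without passing. Leaving out untreated replicate 1, 3 or 5 in turn left 3 calls (F13a1, Ccr2 and Ms4a6c), and leaving out untreated replicate 4 left 2 (Ccr2 and Ms4a6c), beside 11.4% to 18.9% of all tested genes. With both treated replicates left out, 23.7% of all tested genes were still called. With IMQ-treated Bmal1 Mye-/- replicate 1 and IMQ-treated WT replicate 3 left out, 4 of the 8 members passed, beside 28.8% of all tested genes. The median of the members was then 0.60. That WT library is outside this comparison but shares its estimate of the spread, and this pair was also chosen after seeing the data.

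Replicates 1 and 2 were also the highest untreated Bmal1 Mye-/- libraries for most members. Untreated replicate 2 was the highest of its group for 7 members and replicate 1 the second for 6, and replicate 5 was the lowest for 6 when untreated and for 7 after IMQ. With the replicate number as a block, 3 of the 5 calls were kept, namely F13a1, Ccr2 and Ms4a6c, while Irf8 and Klf4 were lost (edgeR adjusted p = 0.104 and 0.122), and 22.2% of all tested genes were called. The median log2 fold change of the members was then 1.33. Limma on log2(CPM + 0.1) called 0 of the 8, beside 18.6% of all tested genes. With limma, 5 members had an unadjusted p under 0.05 (F13a1, Ly6c2, Ccr2, Csf1r and Ms4a6c). The share of all tested genes under that limit was not counted for limma. DESeq2 called the same 5 as edgeR, beside 28.6% of the genes it tested.

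**Figure D3:**
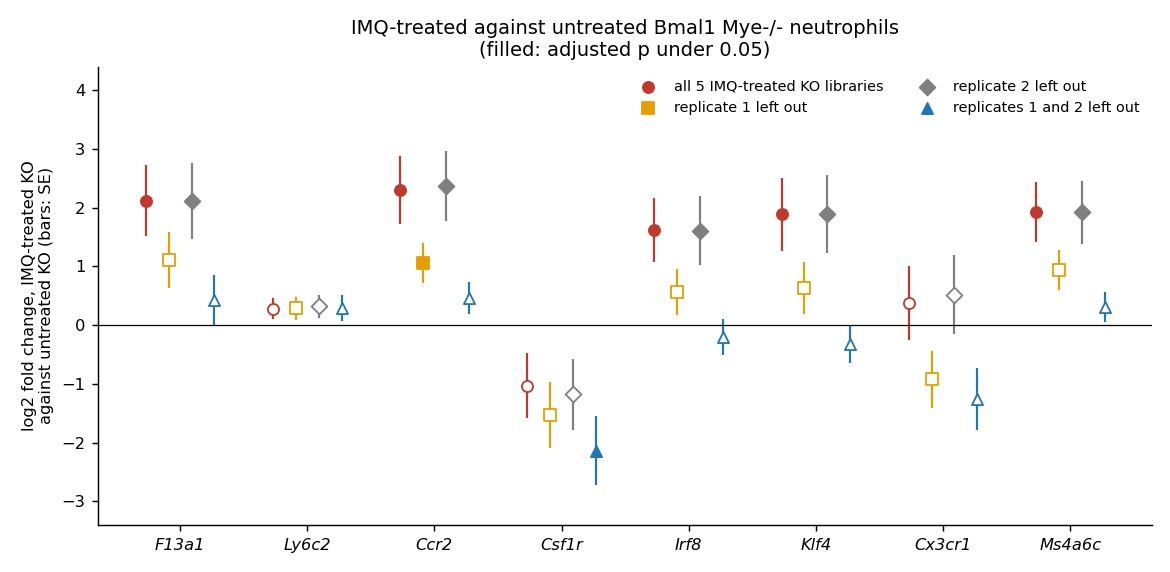
Log2 fold change of each gene between IMQ-treated and untreated Bmal1 Mye-/- (bars: SE), with all 5 treated libraries and with replicate 1, replicate 2 or both left out, filled where the edgeR adjusted p was under 0.05. Without replicates 1 and 2 the 5 genes that had passed lie between -0.32 and 0.46, and Csf1r lies at -2.13.

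The library of IMQ-treated Bmal1 Mye-/- replicate 1 differed from the others in other measures too. It had the highest TMM factor, 1.38, and the lowest summed neutrophil markers, 74425 CPM against 106127 to 163696 CPM in the other 19 libraries. Its summed progenitor markers were the highest of all libraries at 1609 CPM, and its 12 macrophage markers summed to 103 CPM against 38.8 to 79.9 CPM in the other libraries. None of the 12 macrophage markers or 7 progenitor markers was at 0 counts in it. Arntl was 1.52 CPM there, against 0.337 to 0.71 CPM in the other IMQ-treated Bmal1 Mye-/- libraries and 0.562 to 1.87 CPM in IMQ-treated WT. The targeted gene was thus within the WT range in replicate 1, and also in IMQ-treated Bmal1 Mye-/- replicate 5, at 0.71 CPM. Lyz2 was 85.7 CPM in replicate 1 and within the range of its labelled genotype. In untreated Bmal1 Mye-/- replicate 1 Arntl was 1.10 CPM, also within the untreated WT range of 0.895 to 1.71 CPM. Across the comparison of IMQ-treated with untreated Bmal1 Mye-/-, edgeR called 0 of 9 neutrophil, 0 of 7 progenitor, 0 of 7 conventional dendritic and 0 of 5 megakaryocyte genes, 1 of 11 macrophage genes as higher (Axl), 1 of 4 basophil and mast cell genes as higher, and 3 of 7 B-lineage, 1 of 5 T and NK, 1 of 4 plasmacytoid dendritic and 1 of 5 eosinophil genes as lower. Of all tested genes, 23.5% were called in that comparison in either direction. The part of these other measures in the levels of the 8 members was not tested.

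In WT, 0 of the 8 members passed the test after IMQ. Of all tested genes, 3.95% were called and 22.3% had an unadjusted p under 0.05, and among the members F13a1 and Ly6c2 were below that unadjusted limit. DESeq2 called 0 of the 8 members, beside 10% of the genes it tested. The median log2 fold change of the members was 0.40, beside 0.03 over all tested genes. F13a1 had 34.1 to 59.7 CPM in the untreated libraries and 62.7, 67.1, 283, 61.9 and 91.8 CPM after IMQ, and Ms4a6c had 11.1 to 18.3 CPM and 18.6, 19.5, 22.1, 18.8 and 24.3 CPM. For these 2 genes the treated and untreated libraries did not overlap, as for 3.11% of all tested genes, though the lowest treated library lay close above the highest untreated one. Without TMM factors the libraries overlapped for both genes. F13a1 was then as low as 53.2 CPM after IMQ and as high as 61.3 CPM untreated, and Ms4a6c 15.9 and 17.3 CPM. Their log2 fold changes were 1.25 ± 0.59 and 0.62 ± 0.49 (SE, edgeR adjusted p = 0.219 and 0.495). Ly6c2 had 1351, 801, 593, 696 and 577 CPM after IMQ, 3 of them above the untreated range of 540.0 to 606 CPM, with a log2 fold change of 0.48 ± 0.19 (SE, edgeR adjusted p = 0.130). It passed when treated replicate 5 was left out (0.57, edgeR adjusted p = 0.0447), as did 13.9% of all tested genes.

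Ccr2 was 17.2, 18.2, 17.4, 19.4 and 28.8 CPM in untreated WT and 27.1, 33.7, 30.9, 43.9 and 46.6 CPM after IMQ, so that 4 of 5 treated libraries lay above the untreated range. Csf1r was 154, 172, 162, 209.8 and 185 CPM untreated and 55.2, 66.5, 28.4, 144 and 227 CPM after IMQ, with 4 of 5 treated libraries below the untreated range and 1 above it. Their log2 fold changes of 0.85 and -0.76 did not pass (edgeR adjusted p = 0.382 and 0.441). Irf8, Klf4 and Cx3cr1 had log2 fold changes of 0.14, 0.32 and -0.04. In each of these 3 genes replicate 5 was the highest treated WT library, at 24.2, 16.3 and 9.96 CPM, and no other treated WT library exceeded the untreated range. For Cx3cr1 the other 4 treated libraries, at 2.62 to 3.24 CPM, lay below all untreated ones.

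Between the genotypes after IMQ, 0 of the 8 members passed the test with edgeR, and Ccr2, Irf8, Klf4 and Ms4a6c had an unadjusted p under 0.05. Of all tested genes, 0.292% were called and 19.9% had an unadjusted p under 0.05. The fitted log2 fold changes of Bmal1 Mye-/- against WT were 1.78 ± 0.56 for Ccr2, 1.56 ± 0.55 for Irf8, 1.98 ± 0.62 for Klf4 and 1.68 ± 0.50 for Ms4a6c (SE, edgeR adjusted p = 0.182, 0.205, 0.182 and 0.173). DESeq2 called 3 of them, Ccr2, Klf4 and Ms4a6c, with adjusted p = 0.0452, 0.0424 and 0.0362, beside 2.2% of the genes it tested. The groups overlapped for all 8 members, and Bmal1 Mye-/- replicates 1 and 2 were above every WT library for Ccr2, Irf8 and Klf4. The median log2 fold change of the members was 1.34 with all libraries, 0.24 without Bmal1 Mye-/- replicate 1 and -0.24 without replicates 1 and 2. F13a1 and Ms4a6c passed when IMQ-treated WT replicate 3 was left out, the library in which F13a1 was 283 CPM, and 21.9% of all tested genes passed in that fit.

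Whether IMQ acted differently in the genotypes was tested by the interaction of genotype and treatment. It called 0 of the 8 members and 0% of all tested genes, and 0 members had an unadjusted p under 0.05, which 5.14% of all tested genes had. The largest interaction among the members was 1.57 for Klf4, on the log2 scale, with a 95% interval from -0.11 to 3.25, and that of Ccr2 was 1.45 (-0.07 to 2.97). Without Bmal1 Mye-/- replicate 1 the median interaction of the members went from 1.09 to 0.04. A different response of the members in the genotypes was therefore not shown, and the intervals are too wide to show a like one.

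**Figure D4:**
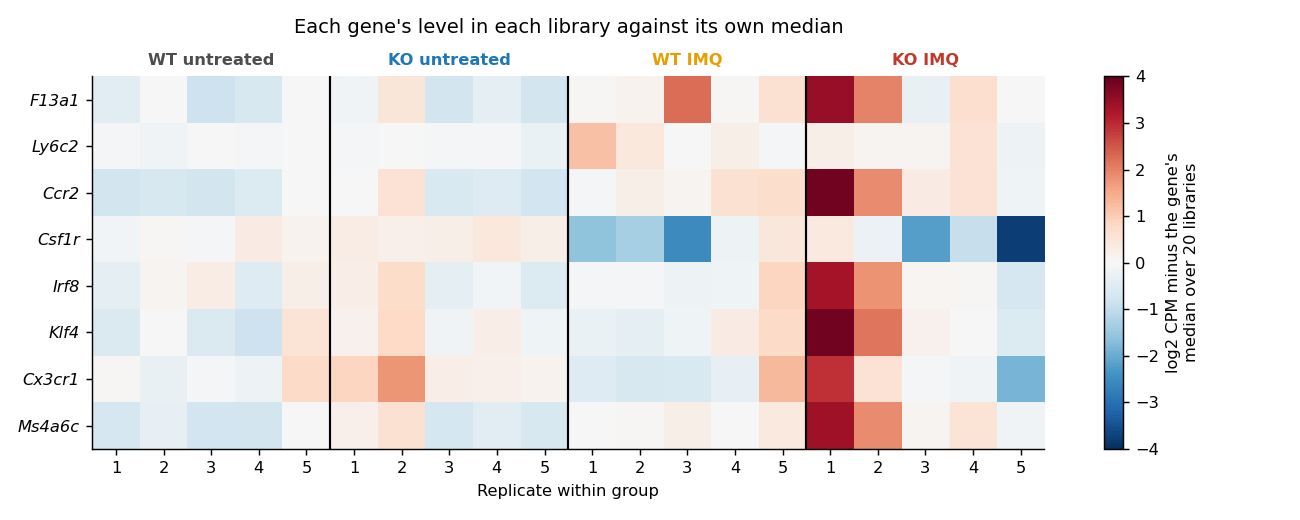
Level of each gene in each of the 20 libraries as the difference in log2 CPM from the gene's own median over all libraries (red higher, blue lower). Replicates 1 and 2 of IMQ-treated Bmal1 Mye-/- (KO IMQ) are high for most genes, and Csf1r is low in several IMQ-treated libraries of both genotypes, down to 12.3 CPM.

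Most of the members varied together from mouse to mouse. With the group means removed, the log2 levels of Ccr2, Ms4a6c, Irf8, Klf4 and Cx3cr1 had Pearson correlations of 0.906 to 0.959 with the mean of the other 7 members over the 20 libraries. F13a1 and Csf1r had 0.731 and 0.71, and Ly6c2 had 0.042 (0.293 without TMM factors). Without IMQ-treated Bmal1 Mye-/- replicates 1 and 2 (18 libraries) the first 5 had 0.782 to 0.873, F13a1 had 0.258 and Csf1r 0.450. These correlations are a description, since the members share each library, its depth and its cell composition. The 10 other genes whose pattern over the 20 libraries was most like the mean of the members, of 14022 compared, were Tifab (r = 0.974), Plxnb2, Aldh1b1, Ptpro, Ly86, Rassf4, Pld4, Ccdc109b, Msr1 and Ms4a6b (r = 0.952). Of these, 3 were on the list of other classical monocyte genes, and 8 were also among the nearest 10 without TMM factors.

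Ly6c2 and Csf1r departed from the other members, each in its own libraries. With TMM scaling, Ly6c2 was highest in IMQ-treated WT replicate 1 (1351 CPM) and IMQ-treated Bmal1 Mye-/- replicate 4 (884 CPM). In these 2 libraries the summed level of 16 interferon-stimulated genes was 5742 and 6310 CPM, against 386 to 1461 CPM in the other 18. Without TMM factors Ly6c2 was 1154 CPM in that WT library and 824 CPM in Bmal1 Mye-/- replicate 4. IMQ-treated Bmal1 Mye-/- replicate 1 then stood above replicate 4, at 967 CPM. In the IMQ-treated libraries Csf1r was low where Csf3r, the receptor of the granulocyte growth factor G-CSF, was low. Csf1r was 12.3 and 28.4 CPM in the libraries with 529 and 409 CPM of Csf3r, and 144 and 227 CPM in those with 2702 and 2754 CPM. IMQ-treated Bmal1 Mye-/- replicate 1 stood apart, with 217 CPM of Csf1r at 476 CPM of Csf3r. Csf3r itself fell after IMQ in Bmal1 Mye-/- (log2 fold change -1.38 ± 0.40, edgeR adjusted p = 0.0223). These side-by-side values were chosen after the data were seen, and the part of either measure in the other was not tested.

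**Figure D5:**
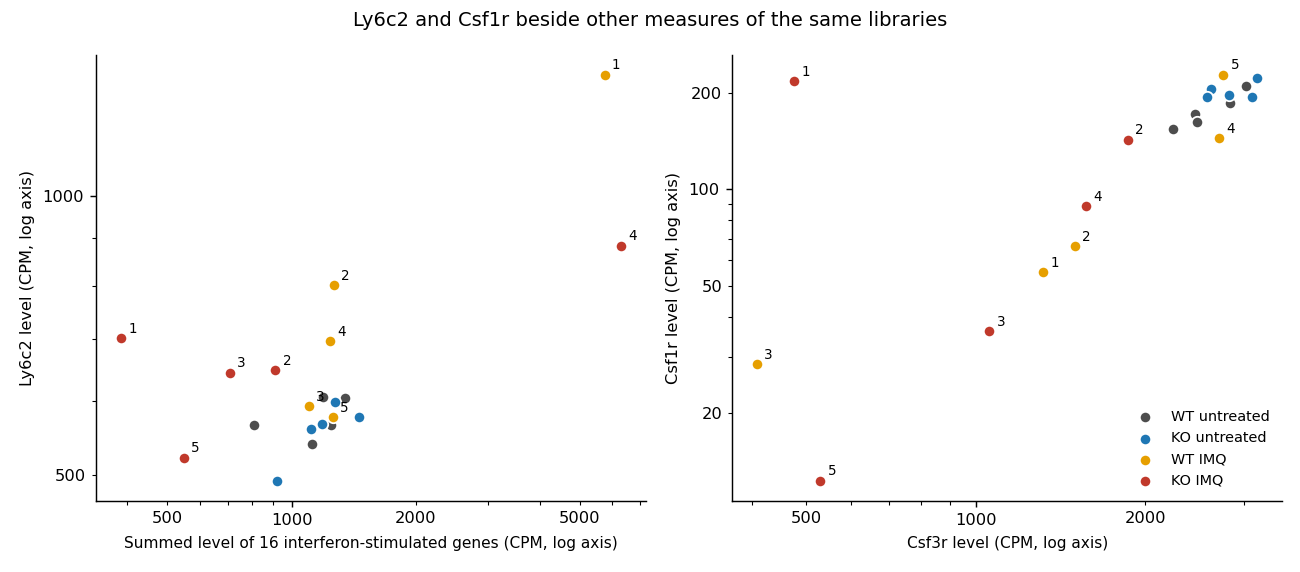
Left, level of Ly6c2 against the summed level of 16 interferon-stimulated genes, and right, level of Csf1r against Csf3r, each in TMM-scaled CPM on log axes, with 1 point per library and replicate numbers at the IMQ-treated ones. The 2 libraries with the most interferon-stimulated RNA (5742 and 6310 CPM) have the most Ly6c2, and replicate 1 of IMQ-treated Bmal1 Mye-/- (KO IMQ) lies apart on the right with 217 CPM of Csf1r.

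Of 8 genes of ligands and partners of the members, 4 passed the filter on low counts. Of these 4, 3 fell after IMQ in Bmal1 Mye-/-, where 23.5% of all tested genes were called in either direction. Csf1, a ligand of Csf1r, went from 42.2 to 65.7 CPM down to 9.68 to 37.7 CPM (log2 fold change -1.31 ± 0.40, edgeR adjusted p = 0.0261), and Il34 and Cx3cl1 fell from means of 1.26 and 1.09 CPM to 0.330 and 0.236 CPM. In WT, where 3.95% of all tested genes were called, Il34 fell (edgeR adjusted p = 0.0452). Ccl2, the main ligand of Ccr2, was not called, with medians of 0.501 CPM in untreated WT and 0.595 CPM after IMQ, and of 0.846 CPM in untreated Bmal1 Mye-/- and 1.95 CPM after IMQ (0.145 to 9.86 CPM).

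The median log2 fold change of 16 other genes of classical monocytes was 1.45 after IMQ in Bmal1 Mye-/-. Beside 14.4% of all tested genes called as higher, 9 of the 16 rose. They included the proteoglycan gene Vcan (3.57 ± 0.60, edgeR adjusted p = 0.0046), Ms4a6d, a paralog of Ms4a6c (3.05 ± 0.57, edgeR adjusted p = 0.0052), Ms4a4c and Ms4a6b. Vcan was the 1 of these 4 whose treated libraries all exceeded the untreated ones, as 10.8% of all tested genes did. Without replicates 1 and 2, 3 of the 16 were higher, Ms4a6d, Vcan and Lgals3, and 1, Psap, was lower, beside 23.7% of all tested genes called. The same 3 rose in WT after IMQ (log2 fold changes 2.06, 2.43 and 0.59), where 3.95% of all tested genes were called. With the replicate block 3 of the 16 were higher, Ms4a4c, Ms4a6d and Vcan, beside 22.2% of all tested genes called.

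Of 8 other transcription factors of the monocyte branch, 1 changed in each genotype after IMQ, where 23.5% of all tested genes were called in Bmal1 Mye-/- and 3.95% in WT. Egr1, which is also an immediate early gene, fell in Bmal1 Mye-/- (log2 fold change -2.29 ± 0.51, edgeR adjusted p = 0.0077) and Irf4 fell in WT (-1.94 ± 0.51, edgeR adjusted p = 0.0413). Spi1, which encodes PU.1, had medians of 889 to 943 CPM in the 4 groups. Of 9 genes of nonclassical monocytes, which share Cx3cr1, 2 rose and 2 fell in Bmal1 Mye-/- after IMQ, namely Spn and Pou2f2 as higher and Itgax and Eno3 as lower. Their summed level in Bmal1 Mye-/- was 243 to 275 CPM untreated and 269 to 435 CPM after IMQ, with the highest sum in replicate 5, where 7 of the 8 members were at the lowest level of the group. Most of that sum was Spn, with means of 169 CPM untreated and 286 CPM after IMQ, while the median log2 fold change of the 9 genes was -0.36 and 3 of them were fitted as higher.

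Some counts of the members could hold reads of other transcripts. On mm10 (GENCODE M21), Ms4a6c on the plus strand of chromosome 19 (11469366 to 11482192) shares 53.1% of its exon bases with BE692007 on the opposite strand, and 51.4% of its 50-base stretches occur in transcripts of other genes. Csf1r on chromosome 18 (61100598 to 61132149) shares 15.1% of its exon bases with Hmgxb3 on the opposite strand. Whether strand was used in counting is not given in the sources used here, and without it reads of such partners cannot be told apart. Ly6c2 on chromosome 15 (75108158 to 75111970) shares 13.9% of its 50-base stretches with its paralog Ly6c1, whose own level was 0.978 to 3.72 CPM in all libraries. For F13a1 on chromosome 13 (36867178 to 37050244), Ccr2 and Cx3cr1 on chromosome 9 (124101950 to 124113557 and 119901616 to 120069879), Irf8 on chromosome 8 (120736358 to 120756694) and Klf4 on chromosome 4 (55527143 to 55532466), at most 1.91% of the stretches were shared.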

How the data were processed

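Bone marrow neutrophil RNA of 20 mice, 1 library each, was analysed from the files of counts that the authors deposited. These are raw whole-number counts of reads per gene, without normalization. The submitters' processing notes name STAR 2.7.8a, HTSeq 2.0.1 and mm10, whereas the methods of the study name TopHat, and the annotation and strand setting are not given in the sources used here. The 5 summary lines of each file were left out of library sizes, and reads on genes were 37.4% to 41.9% of the reads a file accounts for. A joined table of the same counts was not used.

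Libraries were grouped by genotype, treatment and replicate number from their labels. In R 4.3.3, 1 model of the 4 groups was fitted with edgeR 4.0.16 (filterByExpr, TMM, quasi-likelihood test), with Benjamini-Hochberg adjustment over 14030 genes at 0.05. DESeq2 1.42.0 and limma 3.58.1 (log2(CPM + 0.1)) were alternatives, beside RLE factors, no TMM factors, 2 other filters on low counts, a fit of the compared groups, a replicate block and each library left out. All 8 members, at most 4 called genes per other list and the 10 nearest genes by correlation are named. The members and lists were chosen with earlier results of these data known. Lists are described by counts and medians, without a set test.

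The fit was tested on simulated counts before use. It recovered 54 of 100 genes raised 2-fold and 82 of 100 raised 4-fold in IMQ-treated Bmal1 Mye-/-, with 3 false calls. The simulation gave each gene the same spread in all groups, so it does not cover a library that stands apart. Libraries of a group differed by far more than counting error (chi-square per degree of freedom 17.1 to 739 over 40 pairs). Same-numbered untreated and IMQ-treated Bmal1 Mye-/- libraries deviated together (correlations 0.128 to 0.426, all 5 above 0.1). For WT the correlations were 0.0728 to 0.384. Differently numbered libraries were not compared in this way, and the labels do not say what the number marks. The main fit held the groups only, so its p-values leave out any such pairing. With the replicate block, an alternative, 3 members were called for IMQ in Bmal1 Mye-/-, beside 22.2% of all tested genes. Positions and 50-base stretches came from GENCODE M21, and promoters from RefSeq, computed with Python 3.11.15.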

Additional observations from a re-analysis of the deposited data

Results flagged for a closer look

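In 9 of 32 sets of 5 libraries, the highest value of a member stood apart from the other 4 by a gap above Dixon's 95% critical value of 0.71 of the range, and all 9 were high values. This limit flags about 1 in 20 sets of independent, normally distributed values. The values here were CPM without logs, and the 32 sets reuse the same libraries for members that vary together. The 9 flags can therefore not be set against that rate. In IMQ-treated Bmal1 Mye-/- replicate 1 the flagged values were Ccr2 at 416 CPM, Klf4 at 137 CPM and Cx3cr1 at 31.3 CPM. In untreated WT replicate 5 they were Ccr2 at 28.8 CPM and Cx3cr1 at 6.94 CPM, and in IMQ-treated WT replicate 5 Irf8 at 24.2 CPM and Cx3cr1 at 9.96 CPM. The other 2 were F13a1 at 283 CPM in IMQ-treated WT replicate 3 and Ly6c2 at 1351 CPM in IMQ-treated WT replicate 1, the library with 5742 CPM of interferon-stimulated genes.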

How the results depend on the processing

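Of 856 alternative values for single members, 769 kept direction and side of the threshold, 8 gained a call, 30 lost one and 49 changed sign, 2 of these for a called gene. For IMQ in Bmal1 Mye-/-, 5 members were called, beside 23.5% of all tested genes (shares in brackets below). The count was 2 with only the groups compared (22.3%), 3 with the replicate block (22.2%) and 0 with limma (18.6%). It was 1 to 5 with 1 library left out (11.4% to 28.6%) and 1 with both replicates left out (23.7%). With only the groups compared and the block it was 3 (23.6%). The count was 4 without IMQ-treated Bmal1 Mye-/- replicate 1 and IMQ-treated WT replicate 3, beside 28.8% of all tested genes. The median of the members was 1.75, against 0.60 to 2.03 with 1 library left out, 0.0447 without both replicates, 0.60 without Bmal1 Mye-/- replicate 1 and WT replicate 3, and 0.88 with only the groups compared and the block. For the genotypes after IMQ, 0 members were called (0.292%), against 3 with DESeq2 (2.2%). With 1 library left out it was 0 to 2 (2 without WT replicate 3, 21.9%). The median was 1.34, against 0.24 to 1.72 with 1 left out, -0.24 without both replicates and 0.46 without the pair of both genotypes. For IMQ in WT, leaving out 1 library gave 0 to 1 called, the 1 being Ly6c2 without IMQ-treated replicate 5 (13.9%). The median interaction was 1.09, against 0.0394 to 1.37 with 1 left out, -0.49 without both replicates and 0.21 without the pair. The replicate block changed no other count of members. The calls of Irf8 and Klf4 in Bmal1 Mye-/- were lost in 10 of the 21 alternatives each, and each changed sign in 1. The sets that leave out both replicates or the pair, and the block within the compared groups, were chosen after seeing the data. The causes were not tested.

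The log2 fold changes that changed sign were these. Without both replicates they were, for IMQ in Bmal1 Mye-/-, Irf8 -0.21, Klf4 -0.32 and Cx3cr1 -1.26, for the genotypes after IMQ F13a1 -0.69, Ccr2 -0.0527, Irf8 -0.26, Klf4 -0.22 and Cx3cr1 -0.52, and for the interaction F13a1 -0.80, Ccr2 -0.37, Irf8 -0.33, Klf4 -0.62, Cx3cr1 -1.20 and Ms4a6c -0.29. Without the pair, Cx3cr1 was -0.31 for the genotypes after IMQ, 0.0862 for IMQ in WT, -0.92 for IMQ in Bmal1 Mye-/- and -1.001 for the interaction. Without TMM factors, Csf1r was 0.28 for the genotypes after IMQ, and the interactions of Csf1r and Ly6c2 were 0.0635 and 0.0140. With limma, Ly6c2 was 0.00833 for the genotypes after IMQ and 0.0417 for the interaction, and Cx3cr1 was -0.21 for IMQ in Bmal1 Mye-/-. With the replicate block, Irf8 was -0.0281 for the untreated genotypes, and within the compared groups Cx3cr1 was -0.37 for IMQ in Bmal1 Mye-/-. With 1 library left out, the untreated genotypes gave -0.13 to 0.21 for F13a1 and -0.16 to 0.18 for Irf8, and the IMQ-treated ones -0.0105 to 1.67 for F13a1, -0.34 to 0.0332 for Ly6c2, -0.57 to 0.43 for Csf1r and -0.19 to 1.70 for Cx3cr1. IMQ in WT gave -0.12 to 0.23 for Irf8 and -0.62 to 0.19 for Cx3cr1, and IMQ in Bmal1 Mye-/- gave -0.92 to 0.78 for Cx3cr1. The interaction gave -0.13 to 1.55 for F13a1, -0.28 to 0.0935 for Ly6c2, -0.76 to 0.24 for Csf1r and -0.88 to 1.02 for Cx3cr1.

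Counts over all tested genes moved more. They were 29 for the untreated genotypes (59 with only the groups compared), 41 for the IMQ-treated genotypes (310 with DESeq2, 16 with only the groups compared, 20 without WT replicate 4 to 3129 without WT replicate 3, 27 without both replicates, 1259 without the pair), 554 for IMQ in WT (1494 with DESeq2, 326 without a filter, 186 with only the groups compared, 190 with the block, 48 without untreated replicate 2 to 1989 without treated replicate 5, 899 without the pair), 3292 for IMQ in Bmal1 Mye-/- (1612 without untreated replicate 4 to 4037) and 0 for the interaction (0 to 1 with 1 left out).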
